A study of Mus musculus with 22 samples.

Results

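ATP-binding cassette (ABC) transporter genes were followed in the kidneys of mice given cisplatin, the adenosine receptor antagonist KW6002 (istradefylline), or both. The genes were chosen by symbol alone, as those named Abc, a subfamily letter from a to g, and a number, without Abca1 and Abcg1. Of 49 such genes in the count table, 2 were left out for that reason, 7 did not reach 10 counts in 5 libraries, and 40 were kept out of 32858 genes listed. All 40 were tested, and they comprise 12 genes of subfamily A, 8 of B, 9 of C, 4 of D, 1 of E, 3 of F, and 3 of G. The mice were C57Bl6/J males of 8 to 10 weeks, and each gave 1 kidney library. The groups were vehicle (n = 5), KW6002 at 3 mg/kg each day from day -5 to day 7 (n = 6), cisplatin at 3 mg/kg in 6 daily injections from day 0 (n = 5), and both agents on these schedules (labelled Cisplatine + KW6002, n = 6). Kidneys were collected on day 8, at 72 hours from the final cisplatin dose.

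ABC proteins use the energy of ATP to move substrates across membranes, and the kidney carries several of them on the apical and basolateral faces of the proximal tubule, where they pass drugs, conjugates, and urate toward the urine or the blood. Subfamily A handles mainly lipids, B and C hold the multidrug exporters along with mitochondrial transporters and regulators of potassium channels, D serves peroxisomes and lysosomes, and G holds sterol and drug exporters such as the breast cancer resistance protein. Subfamilies E and F have the ATP-binding domains but no membrane domain and act in translation. The 7 genes below the count minimum were Abca12, Abca16, Abcb5, Abcb11, Abcc12, Abcg5, and Abcg8, and the highest count of any of them in any library was 10.

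Library totals ran from 26471762 to 40510754 counts. Levels are in CPM, the count of a gene scaled to the TMM-normalized size of its library. Log2 fold changes and standard errors were estimated for all 22 libraries together by the quasi-likelihood method of edgeR, and p-values were adjusted by Benjamini-Hochberg over 17131 genes. Of the numbers on the labels, whose meaning the labels do not state, 3 of the vehicle group and 3 of the KW6002 group are in the 300s. The remaining 16, every cisplatin-treated mouse among them, are in the 500s. The kidney label fitted the tubule markers, since all 12 proximal tubule markers were detected in every library. Their summed level was 38840 to 43560 CPM with vehicle, 3513 to 5974 CPM with cisplatin, and 9621 to 15800 CPM with both agents. The 4 adrenal markers summed to 64.4 CPM in co-treated replicate 6, against at most 2.70 CPM in any other library. The part of adrenal RNA in the values of that library was not tested. Fat marker RNA also varied, from 37.9 to 1055 CPM summed over 5 markers, and fits with its mean level as a covariate, an alternative chosen after the data were seen, are given where they changed a call. The fat sums of cisplatin kidneys (336.7 to 650.2 CPM) and co-treated kidneys (37.9 to 212 CPM) did not overlap. In these fits, fat marker RNA and the addition of KW6002 can therefore not be fully told apart. In whole kidney, fewer cells of a type and less RNA per cell cannot be told apart, and this holds for every gene below.

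Some family members are close copies, which bears on how far reads of 50 bases can be assigned to each of them. Rodents carry a pair of genes for P-glycoprotein, the drug efflux pump encoded by MDR1 in humans. Abcb1a (chromosome 5, 8660077 to 8748575, plus strand, mm10) and Abcb1b (chromosome 5, 8798147 to 8866315, plus strand) shared 87.7% of aligned coding bases, and 17.0% of the 50-base windows of the Abcb1a transcript and 18.3% of those of Abcb1b also occurred in another gene. A 60-base coding stretch with 24 differing bases, in capitals, shows where reads can be assigned to one of the pair.
Abcb1a: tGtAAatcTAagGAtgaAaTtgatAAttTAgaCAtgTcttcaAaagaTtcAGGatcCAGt
Abcb1b: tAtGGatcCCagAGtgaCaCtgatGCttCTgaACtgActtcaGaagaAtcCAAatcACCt

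Of the 40 members, 22 shared no 50-base window with any other gene. Beyond the P-glycoprotein pair, only Abcb6 shared over 5% of its windows, with 90.3% also found in the overlapping transcript Gm29253 on the same strand, and its counts are therefore uncertain. Exons of 8 other members overlapped a gene on the opposite strand, and whether the counting used strand is not given in the sources used here. These were Abca3, Abca8b, Abcb1a, Abcb1b, Abcb9, Abcb10, Abcc9, and Abcc10.

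Promoter sequence from RefSeq (GRCm38.p6, the 250 bases before a transcription start) was matched for 29 of the 40 members, without Abcc3 and Abcc6. The core of the antioxidant response element bound by NRF2 (TGACNNNGC, both strands) occurred in 10.2% of 32851 promoters of this length, and the p53 decamer motif in 7.13%. Of the 35 promoter sequences of members, 4 held the NRF2 core and 3 the p53 decamer motif, near the shares of all promoters. Among members that rose with cisplatin, Abcb1b held a p53 decamer motif, and Abcc2 held an NRF2 core and a p53 decamer motif. By GENCODE the Abcc2 gene starts at 43782192, inside its window, and both of its matches lie after that start. Both promoters are shown 5′ to 3′ with the matches in capitals, Abcb1b at chr5:8797897-8798146 and Abcc2 at chr19:43782058-43782307, both on the plus strand.
Abcb1b: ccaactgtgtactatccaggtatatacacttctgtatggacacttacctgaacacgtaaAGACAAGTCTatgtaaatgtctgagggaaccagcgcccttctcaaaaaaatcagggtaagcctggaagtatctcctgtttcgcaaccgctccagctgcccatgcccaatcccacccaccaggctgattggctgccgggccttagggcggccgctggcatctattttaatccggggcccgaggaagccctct
Abcc2: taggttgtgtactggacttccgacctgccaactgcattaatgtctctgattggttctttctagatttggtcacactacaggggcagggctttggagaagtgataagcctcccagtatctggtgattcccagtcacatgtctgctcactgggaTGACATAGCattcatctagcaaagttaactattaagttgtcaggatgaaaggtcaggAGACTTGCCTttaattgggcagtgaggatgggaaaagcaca

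Abcc4, which rose with cisplatin, and Abcc10, which fell, also held the NRF2 core. Abca13, which fell, held the p53 decamer motif. The match of Abcc10 lies within the gene as GENCODE annotates it, as does that at the inner start of Abcc4. None of the member promoters held the AP-1 motif TGANTCA or the HNF1 core GTTAAT, which were found in 6.75% and 6.43% of all promoters. A match describes letters in the window and is not a measured binding site.

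In vehicle-treated kidneys, 4 genes stood above the rest once levels were divided by exon length, taken over all annotated exons of a gene together. That length was 6593 bases for Abcd3 and 8532 bases for Abcc2. Their longest coding transcripts had 3489 and 8027 bases. The order among these 4 genes therefore depends on the length used, and transcripts in use in the kidney were not determined. Abcd3, which encodes the peroxisomal membrane protein PMP70, measured 83.2 ± 5.12 CPM per kb (SD, n = 5). Abca3, the lipid transporter known from lung surfactant storage, measured 79.2 ± 2.60 CPM per kb, and Abcc2, the apical exporter of glutathione and glucuronide conjugates (MRP2), measured 74.9 ± 5.28 CPM per kb. The ranges of these 3 genes overlapped from one to the next, so that their order was not separated from the spread between mice. Abcg2, the urate and drug exporter BCRP, followed at 60.5 ± 2.81 CPM per kb, below every Abcc2 value, and the next gene was Abcf1 at 23.3 ± 0.732 CPM per kb. Neighbours in the order overlapped in 32 of 39 pairs, 13 genes reached 10 CPM per kb, and 10 were below 1 CPM per kb. With cisplatin the first place was held by Abcc2 at 130.5 ± 13.2 CPM per kb, although its range overlapped that of Abcd3 at 108 ± 9.18. With both agents Abcc2 measured 178 ± 26.6 CPM per kb, with no overlap with Abcd3 at 97.9 ± 7.91. These places hold for the joined exon length only and were not tested with transcript lengths.

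To find which members respond to cisplatin, the cisplatin and vehicle groups were compared. At an adjusted p below 0.05, 30 of the 40 members changed, 13 higher and 17 lower with cisplatin. Over all genes tested, 70.5% passed the same threshold, 34.6% higher and 35.9% lower, so the share of ABC genes was near that of the whole transcriptome. The median log2 difference was -0.18 over the members and -0.01 over all genes. Groups did not overlap for 25 members, against 55.3% of all genes. With the stricter limits that the study used (0.01 for the adjusted p, and a log2 difference above 1 in size), 11 members changed, against 24.1% of all genes. By subfamily, C had 6 genes higher and 3 lower (median 0.80), A had 3 higher and 6 lower (median -0.24), B had 2 higher and 4 lower (median -0.33), and D had 1 higher and 2 lower (median -0.41). These medians are descriptions and carry no test. When libraries were scaled by their totals alone, the median of all genes moved to 0.20 and the split of the 30 calls turned to 17 higher and 13 lower.

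To find which members respond to KW6002 in cisplatin-treated mice, the group given both agents was compared with the cisplatin group. Of the 40 members, 27 changed, 15 higher and 12 lower with KW6002, against 55.8% of all genes (28.6% higher and 27.2% lower). The median log2 difference was 0.05 over the members and 0.01 over all genes, and groups did not overlap for 16 members, against 37.8% of all genes. At the stricter limits 7 members changed, against 10.3% of all genes. Subfamily B had 5 genes higher and 1 lower (median 0.29), subfamily A had 5 higher and 3 lower (median 0.11), subfamily C had 3 higher and 5 lower (median -0.10), subfamily F had 2 higher, and subfamilies D and G had 2 and 1 lower. This comparison and the former share the cisplatin libraries, so values in both are set side by side below and not related to each other. The plot of log2 fold changes shows 38 of the members in both comparisons.

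**Figure D1:**
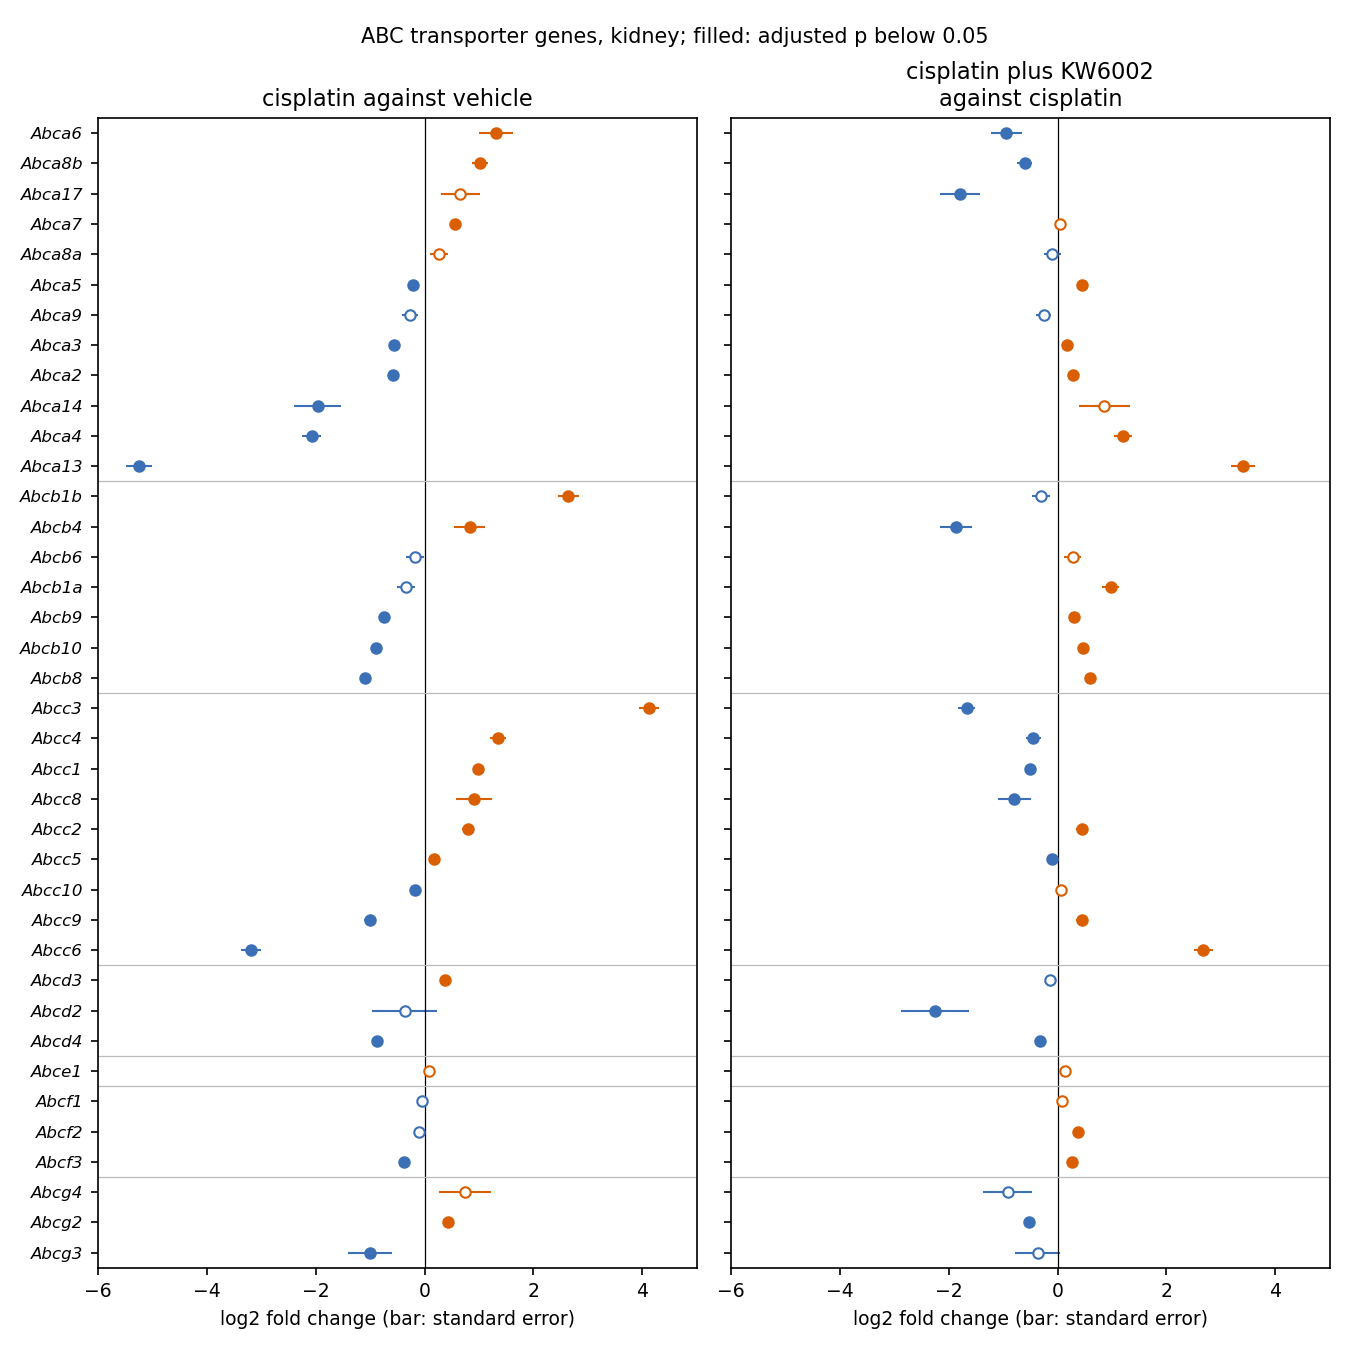
Log2 fold changes (horizontal axis) of 38 of the 40 ABC genes, grouped by subfamily from A at the top to G at the bottom, for cisplatin against vehicle (left) and cisplatin plus KW6002 against cisplatin (right); points are estimates, bars standard errors, and filled points have an adjusted p below 0.05. On the left the ends of the range are Abca13 at -5.25 and Abcc3 at 4.12, and on the right Abca13 at 3.41 and Abcd2 at -2.25.

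Of the 10 drug and conjugate exporters measured, 7 rose with cisplatin, 2 fell (Abcc6 and Abcc10), and Abcb1a did not pass, where 34.6% of all genes rose and 35.9% fell. With KW6002 added to cisplatin, 3 were higher and 5 lower than with cisplatin alone, against 28.6% and 27.2% of all genes. Abcb4 and Abcb11, the exporters of phospholipid and bile salts into bile, were listed as a role of their own and are not among the 10.

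Abcc3 encodes MRP3, a basolateral exporter of glucuronides and bile acids. It measured 3.69, 6.02, 2.92, 4.16, and 3.97 CPM in the vehicle mice and 92.6, 66.8, 67.5, 70.5, and 62.5 CPM in the cisplatin mice. With both agents it ran from 16.0 to 30.5 CPM with a median of 22.8. No cisplatin or co-treated library reached down to the vehicle range, and the cisplatin and co-treated groups did not overlap. The rise with cisplatin was 17.4-fold (log2 4.12 ± 0.19, adjusted p = 1.13e-14), the largest rise of any member, and the level with both agents was 3.19-fold below that with cisplatin (log2 -1.67 ± 0.15, adjusted p = 5.53e-09). Co-treated kidneys remained above vehicle by 2.45 ± 0.18 on the log2 scale (adjusted p = 1.15e-10).

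Abcb1b, the P-glycoprotein gene that rodents induce in liver and kidney under stress, measured 22.4, 28.3, 19.4, 20.3, and 27.8 CPM with vehicle. In the cisplatin group it measured 154, 141, 143, 148, and 154 CPM, far above every vehicle library. In the co-treated group it ran from 86.8 to 146 CPM with a median of 123.5, which overlapped the cisplatin group. The log2 rise with cisplatin was 2.64 ± 0.19 (adjusted p = 2.18e-11), and the difference between co-treated and cisplatin mice was -0.30 ± 0.17 and did not pass (adjusted p = 0.132). The latter passed in a fit of those groups alone (-0.30, adjusted p = 0.019) and with the fat markers in the fit (-0.61, adjusted p = 0.0173).

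Abcb1a, its neighbour and the main P-glycoprotein gene of the blood-brain barrier in rodents, had another pattern. It measured 15.0, 14.9, 13.4, 13.4, and 16.5 CPM with vehicle and 12.7, 9.72, 10.95, 12.1, and 12.3 CPM with cisplatin, a log2 difference of -0.35 ± 0.16 that did not pass (adjusted p = 0.0647), although the groups did not overlap, and that passed when those groups were fitted alone (-0.34, adjusted p = 0.00461) or with the fat markers in the fit (-0.36, adjusted p = 0.0289). With KW6002 alone it ran from 8.74 to 21.6 CPM. With both agents it rose to between 20.6 and 25.7 CPM, with a median of 22.8. This was above every vehicle and cisplatin library and overlapped the range with KW6002 alone. The log2 difference from cisplatin was 0.98 ± 0.16 (adjusted p = 1.52e-05) and that from vehicle 0.64 ± 0.16 (adjusted p = 0.00134). With the fat markers in the fit, the latter became 0.29 (adjusted p = 0.187).

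The log2 ratio of Abcb1b to Abcb1a within a library, chosen for test after the values were seen, was 0.66 ± 0.16 (SD, n = 5) with vehicle and 3.63 ± 0.10 (SD, n = 5) with cisplatin. It was 2.36 ± 0.26 (SD, n = 6) with both agents and 0.29 ± 0.21 (SD, n = 6) with KW6002 alone. The cisplatin range of 3.55 to 3.79 lay wholly above the vehicle range of 0.51 to 0.90 and above the co-treated range of 2.05 to 2.75. By a 2-sided exact permutation test, the cisplatin group differed from vehicle (p = 0.00794, the smallest this design allows) and from the co-treated group (p = 0.00216), and KW6002 differed from vehicle (p = 0.00866). Adjusted over the 6 ratio tests made, each of these was 0.0104 (exact permutation test, Benjamini-Hochberg). Within the 500s, the 3 KW6002 libraries (0.28 to 0.49) lay below both vehicle libraries (0.58 and 0.74), a difference of -0.24 with an exact permutation p of 0.1, which is the smallest that 3 against 2 libraries allow, so that no difference could pass there.

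Abcc2 rose with cisplatin and was higher again with both agents. It measured 589.7, 593, 659, 688, and 666 CPM with vehicle and 1063, 1126, 993, 1091, and 1296 CPM with cisplatin. With both agents it ran from 1128 to 1764 CPM with a median of 1553. Every cisplatin library exceeded every vehicle library, while the cisplatin and co-treated ranges overlapped through 1 co-treated library at 1128 CPM. The log2 differences were 0.80 ± 0.10 for cisplatin against vehicle (adjusted p = 3.88e-07) and 0.45 ± 0.10 for both agents against cisplatin (adjusted p = 0.000614). The latter became 0.25 (adjusted p = 0.0964) with the fat markers in the fit. Abcc2 and Abcd4 were the 2 members that passed with the same sign in both comparisons.

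Abcc4 encodes MRP4, an apical exporter of cyclic nucleotides and organic anions. It measured 85.2, 80.1, 77.6, 69.3, and 73.3 CPM with vehicle and 253, 172, 187, 206, and 159.7 CPM with cisplatin. The co-treated group ran from 129 to 174 CPM with a median of 140.2, above every vehicle library and overlapping the lower cisplatin libraries. Its log2 differences were 1.34 ± 0.15 (adjusted p = 3.16e-08) and -0.45 ± 0.14 (adjusted p = 0.00879).

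Abcc1, which encodes the basolateral glutathione conjugate exporter MRP1, measured 29.1, 27.6, 32.6, 33.1, and 33.8 CPM with vehicle and 75.7, 59.7, 58.7, 61.2, and 52.1 CPM with cisplatin. Co-treated kidneys ran from 37.0 to 50.3 CPM with a median of 43.7, between the other groups with no overlap with either. The log2 differences were 0.98 ± 0.09 (adjusted p = 1.97e-09) and -0.51 ± 0.09 (adjusted p = 2.85e-05).

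Abcg2 averaged 493 ± 22.9 CPM (SD, n = 5) with vehicle, with none below 469.7 CPM. It was 669, 718, 671, 678, and 588 CPM with cisplatin, and 439.8 to 488 CPM with both agents (median 463). The cisplatin group lay above all vehicle and all co-treated libraries. The log2 rise with cisplatin was 0.43 ± 0.06 (adjusted p = 5.70e-07) and the difference between both agents and cisplatin was -0.53 ± 0.05 (adjusted p = 3.99e-08). Co-treated kidneys differed from vehicle by -0.10 ± 0.05, which did not pass (adjusted p = 0.141) and which became 0.06 with scaling by library totals alone.

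Abcc6, an efflux transporter of liver and kidney whose loss causes ectopic calcification, was the exporter that fell most. It measured 34.4, 30.5, 30.4, 27.9, and 24.7 CPM with vehicle and 2.13, 2.39, 2.75, 3.13, and 5.92 CPM with cisplatin. With both agents it ran from 17.8 to 22.9 CPM with a median of 20.9. The 3 groups did not overlap, the cisplatin group lay lowest, and cisplatin replicate 5 was the highest of its group. The fall with cisplatin was 9.10-fold (log2 -3.19 ± 0.18, adjusted p = 3.69e-13), and the level with both agents was 6.40-fold above that with cisplatin (log2 2.68 ± 0.17, adjusted p = 3.70e-11). Co-treated kidneys stayed below vehicle (log2 -0.51 ± 0.15, adjusted p = 0.00562), a call that was lost within the 500s at -0.34 (adjusted p = 0.192) and with the fat markers in the fit at -0.47 (adjusted p = 0.0588).

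Abcc5 and Abcc10, MRP5 and MRP7, changed little. Abcc5 rose with cisplatin by 0.17 ± 0.04 (adjusted p = 0.00103) and was lower with both agents (log2 -0.10 ± 0.04, adjusted p = 0.0468), a call that was lost when any 1 of 9 of the 11 libraries compared was left out (adjusted p from 0.0532 to 0.15). The other 2 were cisplatin replicate 3 and co-treated replicate 2. Abcc10 fell with cisplatin (log2 -0.18 ± 0.06, adjusted p = 0.00875), did not pass within the 500s (-0.18, adjusted p = 0.0719), turned to 0.04 when libraries were scaled by totals alone, and differed by 0.06 ± 0.06 between co-treated and cisplatin mice, which did not pass (adjusted p = 0.375). Abcb4, the phosphatidylcholine exporter of the bile canaliculus, was below 2 CPM in every library. It measured 0.62, 0.84, 0.44, 0.67, and 0.59 CPM with vehicle, 1.71, 0.40, 1.39, 1.34, and 0.76 CPM with cisplatin, and 0.19 to 0.41 CPM with both agents. The log2 rise of 0.83 ± 0.29 with cisplatin (adjusted p = 0.0133) was lost without cisplatin replicate 1 (0.63, adjusted p = 0.0587) and within the 500s (0.83, adjusted p = 0.107), and the co-treated level was lower than that with cisplatin (log2 -1.87 ± 0.29, adjusted p = 1.17e-05). Abcb11, the bile salt export pump, had at most 2 counts in any library.

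**Figure D2:**
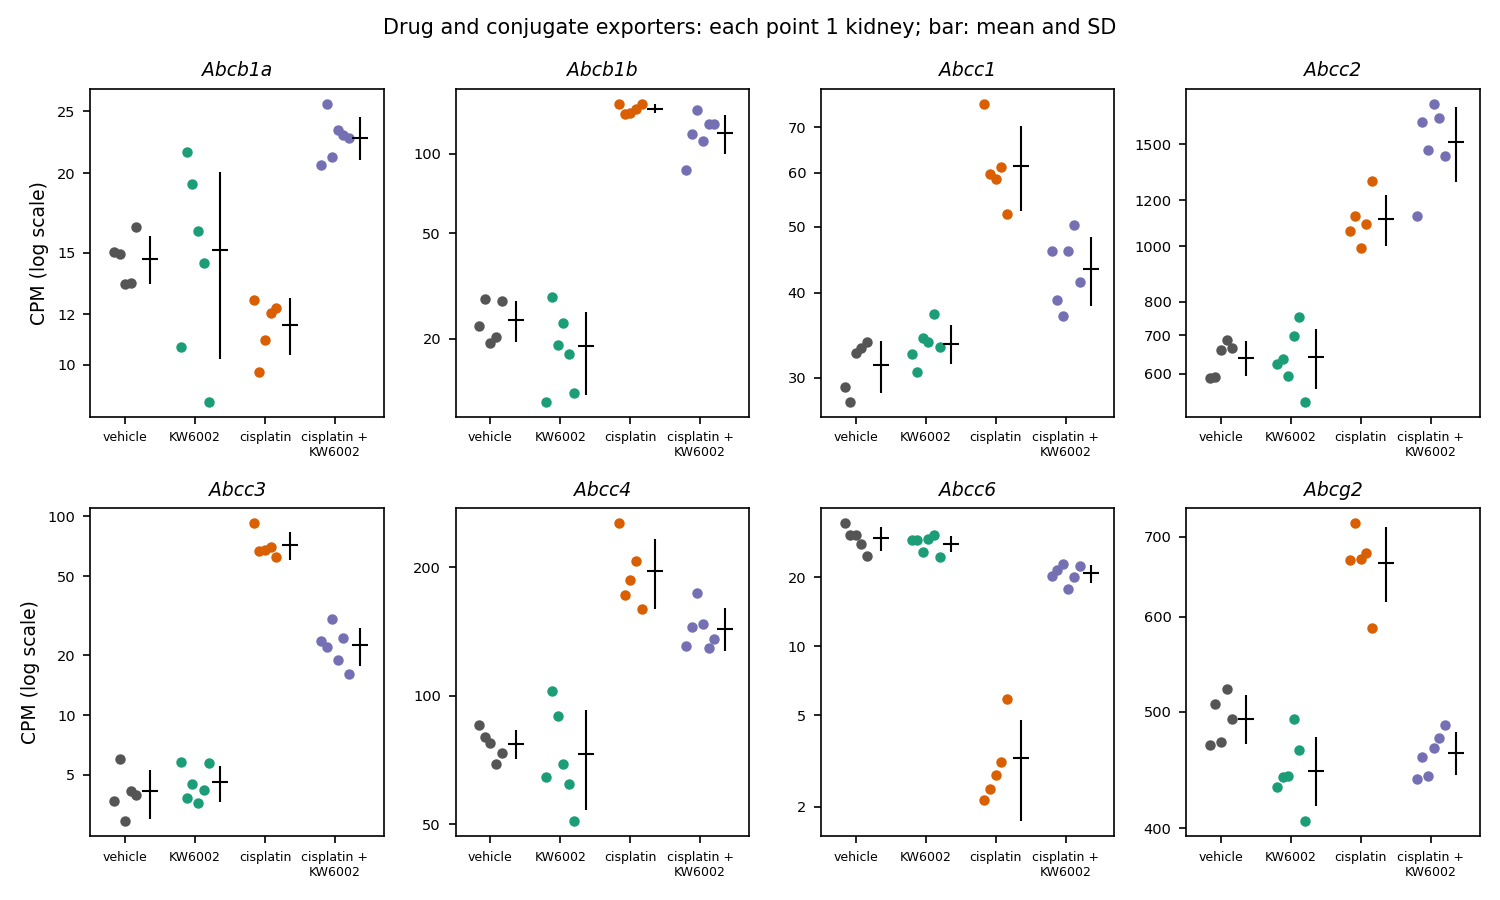
CPM on a logarithmic vertical axis for 8 drug and conjugate exporters in the 4 groups; each point is 1 kidney and the bar beside each group gives the mean and SD. Abcc3 and Abcb1b rise with cisplatin, and Abcc6 falls with cisplatin to between 2.13 and 5.92 CPM. Abcb1a has its highest mean with both agents (20.6 to 25.7 CPM), a range that overlaps KW6002 alone (8.74 to 21.6 CPM).

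Subfamily A, whose members mainly move lipids, had the member with the largest change. Abca13 (chromosome 11, 9191942 to 9684259, plus strand), which encodes one of the longest ABC proteins, measured 134, 164, 259, 259.6, and 280.5 CPM with vehicle. It was 3.38, 7.31, 5.33, 5.97, and 6.91 CPM with cisplatin. With both agents it ran from 52.1 to 77.6 CPM with a median of 58.4. The groups did not overlap, and cisplatin was the lowest. The fall with cisplatin was 37.9-fold (log2 -5.25 ± 0.24, adjusted p = 1.64e-14). The level with both agents was 10.6-fold above cisplatin (log2 3.41 ± 0.23, adjusted p = 4.95e-11) and below vehicle (log2 -1.84 ± 0.19, adjusted p = 3.63e-08).

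Abca3, the most abundant gene of the subfamily, fell from 743 ± 24.4 CPM (SD, n = 5) with vehicle to 504 ± 30.5 CPM (SD, n = 5) with cisplatin. This was a log2 difference of -0.56 ± 0.06 (adjusted p = 8.18e-09) with no overlap, and co-treated kidneys at 571 ± 40.5 CPM (SD, n = 6) were higher than cisplatin by 0.18 ± 0.05 (adjusted p = 0.00716) with overlapping ranges, which did not pass with scaling by library totals alone (0.12, adjusted p = 0.0565). Abca4, known as the retinal transporter that clears retinoid adducts in photoreceptors, measured 10.1, 10.5, 18.7, 20.5, and 17.7 CPM with vehicle and 3.65, 3.97, 3.49, 3.75, and 3.57 CPM with cisplatin. It ran from 7.95 to 8.95 CPM with both agents. None of these 3 ranges touched, the log2 fall with cisplatin was -2.07 ± 0.17 (adjusted p = 1.86e-10), and the co-treated level exceeded cisplatin by 1.21 ± 0.16 (adjusted p = 1.59e-06).

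Abca8b and Abca6 rose with cisplatin. They belong to the cluster of Abca5, Abca6, Abca8a, Abca8b, and Abca9 on chromosome 11 between 109932190 and 110337716. Abca8b measured 6.83, 6.58, 5.95, 8.24, and 8.33 CPM with vehicle, 15.5, 14.1, 14.0, 13.8, and 15.7 CPM with cisplatin, and 7.62 to 13.8 CPM with both agents (median 9.16). Its log2 differences were 1.02 ± 0.15 (adjusted p = 1.97e-06) and -0.60 ± 0.14 (adjusted p = 0.000854), with overlap only in the latter. Abca6 rose by 1.32 ± 0.31 (adjusted p = 7e-04) and was lower with both agents (log2 -0.94 ± 0.29, adjusted p = 0.00814). With the fat markers in the fit, the latter became -0.65 (adjusted p = 0.162). Fibroblast marker RNA was 173 to 374 CPM with vehicle, 767 to 1006 CPM with cisplatin, and 338 to 642 CPM with both agents, with 5 of 5 markers raised by cisplatin and 4 of 5 lower with both agents. The part of fibroblast RNA in these values was not tested.

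The log2 ratio of Abca8b to Abca8a was -2.09 ± 0.09 (SD, n = 5) with vehicle, -1.38 ± 0.18 (SD, n = 5) with cisplatin, and -1.85 ± 0.21 (SD, n = 6) with both agents. The cisplatin libraries lay above all vehicle libraries. The ratio differed between cisplatin and vehicle (exact permutation p = 0.00794, adjusted 0.0104) and between both agents and cisplatin (exact permutation p = 0.00433, adjusted 0.0104). KW6002 alone gave -2.30 ± 0.16 (SD, n = 6), a difference from vehicle of -0.21 (exact permutation p = 0.0303, adjusted 0.0303) that did not pass without vehicle replicate 2, 3, or 5 (exact permutation p from 0.0524 to 0.0714). Within the 500s it was -0.16 with overlapping groups (exact permutation p = 0.5), where 3 against 2 libraries cannot give a p below 0.1.

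Abca14 and Abca17 were below 1 CPM in every library. Abca14 fell with cisplatin (log2 -1.96 ± 0.44, adjusted p = 0.000367). It had up to 20 counts with vehicle or KW6002, but at most 7 with cisplatin and 9 with both agents. It therefore met the count minimum only through groups without cisplatin, so the choice of genes favoured a fall in either cisplatin-treated group. In fits of vehicle with either of these groups alone it was not tested. Abca17, which lies beside Abca3 and shares 2.75% of its 50-base windows with it, was lower with both agents than with cisplatin (log2 -1.79 ± 0.37, adjusted p = 0.000308). Its difference of 0.66 ± 0.36 between cisplatin and vehicle did not pass (adjusted p = 0.105) and passed without cisplatin replicate 1 (0.84, adjusted p = 0.0393) or with scaling by library totals alone (0.87, adjusted p = 0.0329). Of the other 5 genes of the subfamily, Abca7 rose with cisplatin (0.57 ± 0.07, adjusted p = 1.40e-07), Abca2 (-0.58 ± 0.06, adjusted p = 1.09e-08) and Abca5 (-0.22 ± 0.08, adjusted p = 0.0261) fell, and Abca8a and Abca9 did not pass. Abca9 passed without cisplatin replicate 1 (-0.35, adjusted p = 0.0454) or 5 (-0.36, adjusted p = 0.0389), and, for both agents against cisplatin, without cisplatin replicate 4 (-0.35, adjusted p = 0.0442). The call for Abca5 was lost without vehicle replicate 2 (-0.19, adjusted p = 0.0651) or cisplatin replicate 2 (-0.18, adjusted p = 0.0773) and with scaling by library totals alone (0.002, adjusted p = 0.986). With the same scaling Abca8a passed for cisplatin (0.48, adjusted p = 0.0102), and within the 500s Abca9 did (-0.51, adjusted p = 0.0231).

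The mitochondrial and lysosomal transporters of subfamily B had 4 of 5 genes lower with cisplatin and 4 of 5 higher with both agents than with cisplatin, where 35.9% of all genes were lower and 28.6% higher, and Abcb6 passed in neither. Abcb8, a mitochondrial transporter linked to iron export, measured 83.0, 88.0, 88.5, 81.1, and 79.4 CPM with vehicle and 34.2, 38.7, 41.8, 38.7, and 44.1 CPM with cisplatin. It ran from 57.0 to 66.8 CPM with both agents, median 58.0. The groups were fully separate, with log2 differences of -1.09 ± 0.07 (adjusted p = 1.22e-12) and 0.60 ± 0.06 (adjusted p = 4.79e-08). Abcb10, which supports heme synthesis at the mitochondrial inner membrane, differed by -0.89 ± 0.05 (adjusted p = 5.45e-13) and 0.46 ± 0.05 (adjusted p = 5.68e-08). Abcb9, a lysosomal peptide transporter, differed by -0.74 ± 0.09 (adjusted p = 1.25e-07) and 0.30 ± 0.09 (adjusted p = 0.00565).

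Subfamily C also holds the sulfonylurea receptors, which regulate ATP-sensitive potassium channels. Abcc9, the receptor of vascular and cardiac channels, measured 31.5, 34.1, 38.0, 36.2, and 35.1 CPM with vehicle and 16.9, 18.6, 16.7, 16.5, and 18.7 CPM with cisplatin. It ran from 18.7 to 31.3 CPM with both agents, median 23.0. Every cisplatin library lay below every vehicle library, by a log2 difference of -1.002 ± 0.114 (adjusted p = 5.38e-08), and both agents gave 0.46 ± 0.11 above cisplatin (adjusted p = 0.0012). The 5 smooth muscle and pericyte markers summed to 185 to 233 CPM with vehicle and 281 to 328 CPM with cisplatin, but they did not move together. Of the 5, Acta2 and Pdgfrb rose with cisplatin, the pericyte marker Rgs5 fell (log2 -0.42, adjusted p = 5.41e-06) and was higher with both agents than with cisplatin (0.34, adjusted p = 7.39e-05), and Myh11 and Cnn1 did not pass. Their part in the Abcc9 values was not tested. Kcnj8, the channel pore that pairs with Abcc9, fell with cisplatin (log2 -0.35 ± 0.13, adjusted p = 0.0191). Kcnj11, the pore that pairs with Abcc8, fell as well (log2 -0.999 ± 0.208, adjusted p = 0.000182), opposite to the direction of Abcc8. Abcc8, the pancreatic receptor, stayed below 1.2 CPM in every library, and its differences of 0.90 ± 0.33 (adjusted p = 0.0189) and -0.80 ± 0.31 (adjusted p = 0.0311) were each lost without cisplatin replicate 1 (0.69, adjusted p = 0.0759, and -0.58, adjusted p = 0.13). The first was also lost without vehicle replicate 3 (0.75, adjusted p = 0.0582) and within the 500s (0.85, adjusted p = 0.122). The second was lost without co-treated replicate 2, 4, or 5 (-0.62 to -0.75, adjusted p from 0.0578 to 0.0729), with the fat markers in the fit (-0.51, adjusted p = 0.332), with no filter on low counts (-0.79, adjusted p = 0.058), and in a fit of those groups alone (-0.80, adjusted p = 0.0554).

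**Figure D3:**
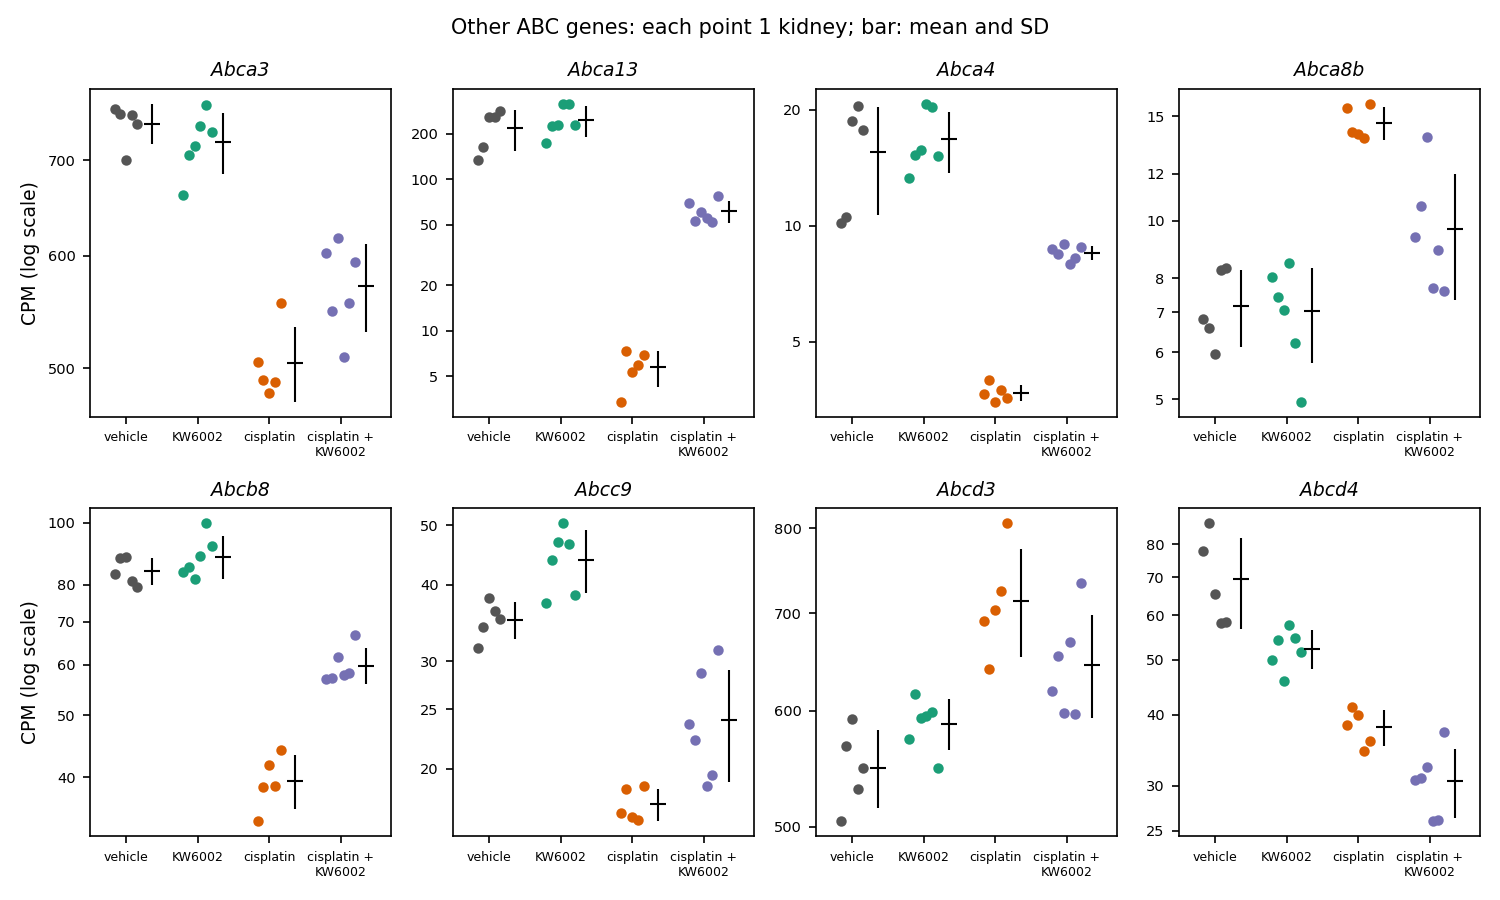
CPM on a logarithmic vertical axis for 8 further ABC genes in the 4 groups; each point is 1 kidney and the bar beside each group gives the mean and SD. Abca13 and Abca4 are lowest with cisplatin (Abca13 from 3.38 to 7.31 CPM), Abca8b is highest there, and Abcd4 is lower in both cisplatin-treated groups than in either of the others.

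Among the peroxisomal and lysosomal transporters of subfamily D, Abcd3 rose with cisplatin and Abcd4 fell. Abcd3 went from 549 ± 33.8 CPM (SD, n = 5) to 713 ± 60.5 CPM (SD, n = 5), a log2 difference of 0.38 ± 0.07 (adjusted p = 1.83e-05) with no overlap. With both agents it was 645 ± 52.1 CPM (SD, n = 6), and the difference of -0.15 ± 0.06 from cisplatin did not pass (adjusted p = 0.0512), although it passed with DESeq2 (adjusted p = 0.0298) and without cisplatin replicate 2 (-0.18, adjusted p = 0.0205) or co-treated replicate 6 (-0.19, adjusted p = 0.0101).

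Abcd4, which exports cobalamin (vitamin B12) from lysosomes, measured 78.0, 87.1, 65.4, 58.1, and 58.4 CPM with vehicle and 38.4, 41.3, 40.1, 34.6, and 35.9 CPM with cisplatin. Co-treated kidneys ran from 26.0 to 37.4 CPM with a median of 30.8. All libraries that received cisplatin lay below all that did not. The log2 differences were -0.87 ± 0.11 for cisplatin against vehicle (adjusted p = 1.63e-07) and -0.32 ± 0.10 for both agents against cisplatin (adjusted p = 0.0114). The latter became -0.19 (adjusted p = 0.238) with the fat markers in the fit. Lmbrd1 and Mmachc, which act with Abcd4 in cobalamin export and processing, also fell with cisplatin (-0.42 ± 0.04, adjusted p = 1.81e-08, and -0.63 ± 0.07, adjusted p = 1.44e-08) and were higher with both agents than with cisplatin (0.37 ± 0.04, adjusted p = 2.22e-07, and 0.26 ± 0.06, adjusted p = 0.00156).

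Abcd2, a peroxisomal fatty acid transporter that is abundant in fat, varied widely within groups. It measured 12.2, 22.5, 3.33, 3.73, and 1.73 CPM with vehicle, 5.78, 3.37, 9.78, 10.3, and 4.36 CPM with cisplatin, and 0.41 to 2.97 CPM with both agents. The co-treated group lay below the cisplatin group with no overlap (log2 -2.25 ± 0.63, adjusted p = 0.0043). The 5 fat markers summed to 336.7 to 650.2 CPM with cisplatin and 37.9 to 212 CPM with both agents, and all 5 were lower with both agents. In vehicle mice they ran from 144 to 1055 CPM, and vehicle replicate 2 was the highest library for both the markers and Abcd2. With these markers in the fit, the Abcd2 difference became 0.25 (adjusted p = 0.429). The difference between cisplatin and vehicle was -0.36 ± 0.60 (adjusted p = 0.601) and turned to 0.35 (adjusted p = 0.605) without vehicle replicate 2. Within the 500s it was 1.30 (adjusted p = 0.0481).

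**Figure D4:**
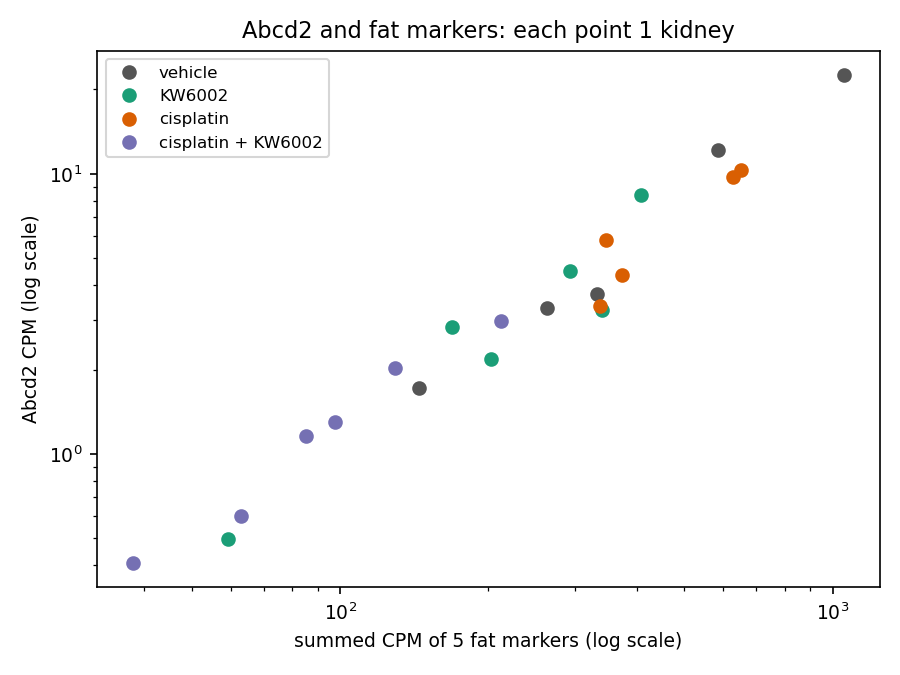
Abcd2 CPM (vertical, logarithmic) against the summed CPM of 5 fat markers (horizontal, logarithmic); each point is 1 kidney, coloured by group. Kidneys with more fat marker RNA tend to have more Abcd2 within each group, from 37.9 CPM of fat markers and 0.41 CPM of Abcd2 in 1 co-treated kidney to 1055 and 22.5 CPM in 1 vehicle kidney.

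The ATPases of subfamilies E and F, which bind ribosomes and translation factors and transport nothing across membranes, had small changes. Abce1, which splits ribosomes after termination, measured 101 ± 9.07 CPM (SD, n = 5) with vehicle, 107 ± 3.38 CPM (SD, n = 5) with cisplatin, and 118 ± 11.1 CPM (SD, n = 6) with both agents. Its differences were 0.09 ± 0.07 (adjusted p = 0.276) and 0.14 ± 0.07 (adjusted p = 0.0997), of which the first passed with scaling by library totals alone (0.31, adjusted p = 0.000905) and the second without co-treated replicate 3 or 6 (0.17, adjusted p = 0.0469 and 0.0467) and within the 500s (0.14, adjusted p = 0.0452). Abcf1 differed by -0.04 ± 0.04 (adjusted p = 0.444), which turned to 0.18 and passed with scaling by library totals alone (adjusted p = 0.000903), and by 0.09 ± 0.04 (adjusted p = 0.07), which passed without cisplatin replicate 5 (0.12, adjusted p = 0.0156) or co-treated replicate 1 (0.10, adjusted p = 0.0457). Abcf3 fell with cisplatin (-0.37 ± 0.05, adjusted p = 5.39e-07) and was higher with both agents (0.28 ± 0.05, adjusted p = 3.53e-05), as was Abcf2 in the latter comparison alone (0.38 ± 0.05, adjusted p = 2.23e-06). In subfamily G, Abcg3 and Abcg4 were low, with vehicle means of 1.24 and 0.204 CPM. The call of Abcg3 with cisplatin (log2 -0.997 ± 0.404, adjusted p = 0.032) was lost when any 1 of 5 libraries was left out, vehicle replicate 1 or 2 or cisplatin replicate 2, 3, or 4 (adjusted p from 0.0647 to 0.126), and within the 500s (-0.29, adjusted p = 0.634). Abcg4 did not pass, although its difference between both agents and cisplatin passed without cisplatin replicate 4 (-1.12, adjusted p = 0.0404) or co-treated replicate 6 (-1.21, adjusted p = 0.038).

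The CPM of the genes of a subfamily was summed in each library, with the 7 genes below the count minimum included, and is given in the plot of summed CPM. Relative to the vehicle mean, subfamily C reached 1.71 ± 0.11 (SD, n = 5) with cisplatin and 2.04 ± 0.25 (SD, n = 6) with both agents, sums in which Abcc2 is the largest part. Subfamily A fell to 0.607 ± 0.0319 and 0.724 ± 0.0475, with vehicle libraries from 0.929 to 1.07. Subfamily G reached 1.35 ± 0.0954 with cisplatin, above every other library, and 0.935 ± 0.0383 with both agents. Subfamily B was 1.13 ± 0.0410 and 1.24 ± 0.0804, and subfamily F was 0.914 ± 0.0495 and 1.06 ± 0.0226. All 47 genes together were 1.13 ± 0.0397 and 1.19 ± 0.0589. Single genes weigh heavily in the other sums too. Of the subfamily B sum, Abcb1b gave 23.6 of 270.5 CPM with vehicle and 148 of 305 CPM with cisplatin. In that subfamily 4 genes fell with cisplatin and 2 rose. Abcg2 gave 493 of 494.9 CPM of the subfamily G sum with vehicle. Of the subfamily A sum of 1214 CPM with vehicle, Abca3 gave 743 CPM and Abca13 219 CPM.

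**Figure D5:**
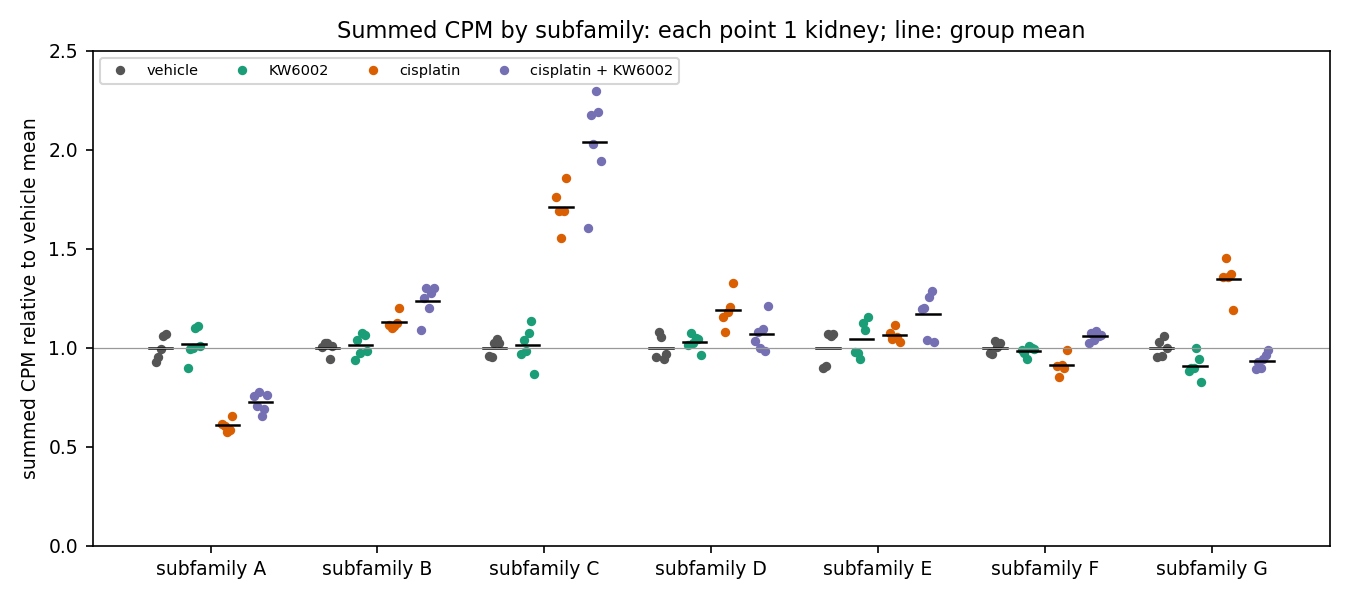
Summed CPM of each ABC subfamily relative to its vehicle mean (vertical, linear from 0) in the 4 groups; each point is 1 kidney and lines are group means. Subfamily C is above 1.5 in all libraries that received cisplatin, and subfamily A lies between 0.576 and 0.778 there.

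To find whether KW6002 acts on these genes without cisplatin, it was compared with vehicle. No member passed (edgeR), against 0.0175% of all genes. At an unadjusted p below 0.05 there were 5 members, against 11.3% of all genes: Abcd4 (log2 -0.41 ± 0.10), Abcc9 (0.33 ± 0.11), Abcg2 (-0.14 ± 0.06), Abcc10 (0.13 ± 0.06), and Abcd2 (-1.26 ± 0.59), with adjusted p from 0.131 to 0.426. With DESeq2, Abcd4 passed (-0.40 ± 0.11, adjusted p = 0.0362). Abcd4 was the only member without overlap between these groups, against 1.38% of all genes, at 45.9 to 57.6 CPM with KW6002 and 58.1 to 87.1 CPM with vehicle. Within the 500s its difference was -0.09 (adjusted p = 0.859).

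Whether the effect of KW6002 differed between mice with and without cisplatin was tested as a difference of the effects. It passed for 20 members, 13 with a higher and 7 with a lower effect under cisplatin, against 42.7% of all genes (22.8% higher and 19.9% lower), and 4 did so at the stricter limits, against 8.58%. The largest were Abca13 (3.24 on the log2 scale, adjusted p = 1.59e-08), Abcc6 (2.76, adjusted p = 5.88e-09), and Abcc3 (-1.83, adjusted p = 2.96e-06). With the fat markers in the fit, the calls of Abcc2 (0.32, adjusted p = 0.064), Abcb4 (-1.06, adjusted p = 0.0565), and Abca6 (-0.93, adjusted p = 0.0937) were lost. The mitochondrial and lysosomal transporters of subfamily B passed in 4 of 5 cases, all higher, of which 2 were lost within the 500s, Abcb9 among them (0.22, adjusted p = 0.28). For Abcb1b the difference of the effects was 0.03 ± 0.24 (adjusted p = 0.928), and for Abcb1a it was 0.93 ± 0.22 (adjusted p = 0.0017).

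To see how far co-treated kidneys remained from vehicle, these groups were compared directly. Of the 40 members, 29 differed, 12 higher and 17 lower, against 59.7% of all genes (29.8% higher and 29.9% lower), 20 had no overlap, against 37.5%, and 8 passed the stricter limits, against 13.4%. With the fat markers in the fit, 18 passed, 7 higher and 11 lower. The 11 calls lost were those of Abca5, Abca8b, Abca14, Abca17, Abcb1a, Abcb4, Abcc6, Abcd2, Abcd3, Abce1, and Abcg3 (adjusted p from 0.0501 to 0.331), and within the 500s 9 of the same 11 were lost, all but Abcb1a and Abcd3 (adjusted p from 0.0709 to 0.559). Among drug and conjugate exporters, 6 of 10 were higher and 1 lower than vehicle, including Abcc2 (1.25 ± 0.10, adjusted p = 6.90e-10), Abcb1b (2.34 ± 0.18, adjusted p = 3.39e-10), and Abcc4 (0.90 ± 0.14, adjusted p = 1.16e-05). Of the mitochondrial and lysosomal transporters of subfamily B, 3 of 5 were lower. Abcb4 was lower as well (-1.03 ± 0.32, adjusted p = 0.00747), which became -0.54 with the fat markers in the fit (adjusted p = 0.275). The calls of Abca14 (-1.10, adjusted p = 0.0173) and Abca5 (0.23, adjusted p = 0.0176) were lost without vehicle replicate 1 (-0.90, adjusted p = 0.0682, and 0.19, adjusted p = 0.0617), Abcc10 passed without co-treated replicate 3 (-0.16, adjusted p = 0.0135), and Abcd2 (-2.61, adjusted p = 0.0012) became -1.90 without vehicle replicate 2 (adjusted p = 0.0103).

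Family members under other symbols were given beside these. Tap1 and Tap2, the endoplasmic reticulum transporter that loads peptides for MHC class I, and Cftr, the chloride channel, all rose with cisplatin (3 of 3, against 34.6% of all genes), and none of the 3 passed between co-treated and cisplatin mice, where 55.8% of all genes did (edgeR). Tap1 rose from 12.8 ± 3.36 CPM (SD, n = 5) to 44.9 ± 2.25 CPM (SD, n = 5), a log2 difference of 1.81 ± 0.13 (adjusted p = 1.86e-11), and was 45.5 ± 5.99 CPM (SD, n = 6) with both agents. Of 16 partners and regulators, 6 rose and 9 fell with cisplatin, and 7 were higher and 3 lower with both agents than with cisplatin. Over all genes these shares were 34.6% and 35.9%, and 28.6% and 27.2%. Nfe2l2, which encodes NRF2, rose by 1.38 ± 0.06 (adjusted p = 7.73e-15) and was lower with both agents (log2 -0.58 ± 0.06, adjusted p = 1.74e-08). The apical scaffolds that hold transporters at the brush border, Pdzk1 and Slc9a3r1, fell with cisplatin (log2 -1.57 ± 0.11, adjusted p = 2.33e-11, and -0.85 ± 0.07, adjusted p = 4.20e-10), and were higher with both agents than with cisplatin by 0.39 ± 0.11 (adjusted p = 0.00315) and 1.08 ± 0.07 (adjusted p = 3.39e-11).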

How the data were processed

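Kidney RNA of 22 mice was measured by RNA-Seq. Per the labels and the methods of the study, the authors built stranded mRNA libraries (TruSeq), read 50 bases from one end of each fragment, demultiplexed with bcl2fastq 2.17.1.14, mapped to mm10 with STAR, kept unique alignments, and counted with HTSeq 0.6.1p1. The deposited values are raw counts of uniquely mapped reads for each gene, not normalized by the authors. Another 66 columns of the table have no name and were not used. Symbols, positions, exon lengths, and transcripts came from GENCODE M21 (GRCm38), which left 34 genes without a symbol.

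Counts were tested with edgeR 4.0.16 in R 4.3.3 (filterByExpr, TMM factors, 1 mean per group, quasi-likelihood F tests, Benjamini-Hochberg adjustment), with all 22 libraries in 1 fit. The common dispersion was 0.0168. The replicate number was not used as a block. A gene passed at an adjusted p below 0.05. Replicates are separate mice. Paralog ratios used log2(CPM + 0.5) and exact permutation tests. Promoter and coding sequences were read from RefSeq and GENCODE.

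The text names every member past an adjusted p of 0.05 and a log2 fold change beyond 1 in cisplatin against vehicle or in both agents against cisplatin, the listed exporters, the most abundant member of each subfamily per kb, and members with the same sign in both comparisons, 25 in all. Other members were named after their values were seen, and 2 members are counted but not reported here. The members and lists were chosen with earlier results of these data known. Tested on simulated counts for cisplatin against vehicle, the steps recovered 95 of 100 genes changed by 1 on the log2 scale and all 100 changed by 2, with 5 false calls among 16869 genes. No other genes were changed there, rises and falls were balanced, and genes with low counts were not among those changed. In the measured comparison 70.5% of all genes passed, so these rates need not hold for it. Alternatives were DESeq2 1.42.0, relative log expression factors, library totals alone, other filters, fits of the compared groups alone, replicate number as block, the label series as covariate or its 500s alone, a stricter threshold, each library left out, and, added after the data were seen, the fat markers as a covariate and other settings of the ratios.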

Additional observations from a re-analysis of the deposited data

Results flagged for a closer look

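A library stood far from the rest of its group in 5 of 100 group and gene combinations tested, and chance gives about 1 in 20. Abca17 was 0.515 CPM in co-treated replicate 3, against 0.086 to 0.228 CPM in the other 5. Abcc10 was 30.6 CPM in cisplatin replicate 5, against 26.1 to 27.3 CPM in the others. Abcc3 was 92.6 CPM in cisplatin replicate 1, against 62.5 to 70.5 CPM, and Abcc6 was 5.92 CPM in cisplatin replicate 5, against 2.13 to 3.13 CPM. Abcf1 was 108 CPM in KW6002 replicate 1, against 97.7 to 100.4 CPM.

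The effect of KW6002 differed between mice with and without cisplatin for 14 of the 25 genes named by rule (edgeR test of the difference, adjusted p below 0.05). It was higher under cisplatin for Abca13 by 3.24 on the log2 scale, Abcc6 by 2.76, Abca4 by 1.10, Abcb1a by 0.93, Abcb8 by 0.52, Abcc2 by 0.44, and Abca3 by 0.22. It was lower for Abcc3 (-1.83), Abcb4 (-1.33), Abca6 (-1.08), Abcc1 (-0.61), Abca8b (-0.57), Abcg2 (-0.38), and Abcd3 (-0.24).

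The difference for Abca6 did not pass when any 1 of 13 of the 22 libraries was left out (adjusted p from 0.053 to 0.0737). These were vehicle replicates 1, 3, and 5, KW6002 replicates 1, 4, 5, and 6, cisplatin replicates 1, 2, and 5, and co-treated replicates 4, 5, and 6. That for Abcd3 did not pass without vehicle replicate 1 or 4 or cisplatin replicate 5 (adjusted p from 0.0511 to 0.0598), and that for Abca8b without vehicle replicate 3 (-0.51, adjusted p = 0.0549). Within the 500s the differences for Abca3, Abca8b, Abcb4, Abcc2, and Abcd3 did not pass (adjusted p from 0.0647 to 0.484), and with the fat markers in the fit those for Abca6, Abcb4, and Abcc2 did not (adjusted p from 0.0565 to 0.0937).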

How the results depend on the processing

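Counts of members that passed ranged from 26 to 31 for cisplatin against vehicle, 23 to 28 for both agents against cisplatin, 18 to 31 for both agents against vehicle, and 14 to 22 for the difference of the KW6002 effects, over the alternatives that kept all libraries of a fit and the same threshold, with fits of the 500s alone included. At the stricter threshold they were 11, 7, 8, and 4. For KW6002 against vehicle the count was 0, with 1 by DESeq2. For both agents against vehicle the fat markers as a covariate gave 18. Leaving out 1 library gave 28 to 31, 25 to 29, 27 to 30, 18 to 22, and 0 in the same order.

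With the replicate number as a block the counts were 30, 27, 29, 20, and 0. It changed the calls of Abcc5 and Abcg4 in both agents against cisplatin and of Abca6 and Abca2 in the difference of the effects. The labels state no pairing of libraries with the same number, although vehicle and KW6002 replicates 1 to 3 also share the 300s. Correlations of deviations ran from -0.175 to 0.405 over 31 pairs. The highest was that of vehicle replicate 1 with KW6002 replicate 1, both in the 300s.

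Among the 25 genes named by rule, these log2 differences turned sign, of which Abcc10 for cisplatin and Abcd2 for both agents had passed. Abca5, not among the 25, had also passed for cisplatin (-0.22) and became 0.002 with scaling by library totals alone. Scaling by library totals alone, which moved the median of all genes to 0.204 for cisplatin against vehicle, gave Abcc10 0.035 against vehicle for both cisplatin and both agents, Abcf1 0.18 for cisplatin, and Abcg2 0.062 for both agents against vehicle. For Abce1, cisplatin against vehicle became -0.021 with the label series as a covariate and -0.005 within the 500s. For Abcd2, cisplatin against vehicle became 0.444 with the label series as a covariate, 1.3 within the 500s, and 0.18 with the fat markers, and ran from -0.631 to 0.351 with each library left out. With the fat markers Abcd2 was 0.25 for both agents against cisplatin and 0.431 against vehicle, and within the 500s KW6002 against vehicle was 0.377. The cause was not tested.

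The 500s hold 2 vehicle mice, 3 KW6002 mice, and every cisplatin-treated mouse. Members below 1 CPM rest on few counts per library, and a difference in them was not always detectable at this depth.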
